A study of Homo sapiens with 24 samples.

Results

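The serpins are a superfamily of protease inhibitors, and 34 of the 57820 genes in the deposited count tables carried a name made of SERPIN, a clade letter from A to I and a number. These 34 genes were taken by name, and 4 further gene names that begin with SERPIN did not have this form. They fell into clade A (10 genes), clade B (13), clade E (3), clades F and I (2 each) and clades C, D, G and H (1 each). Most serpins work as suicide substrates: a protease cuts the exposed reactive loop, the inhibitor folds around the cut and the protease is trapped in a covalent complex. Clade A members are mostly plasma proteins made in the liver, clade B members lack a classical secretion signal and act largely inside cells, and the clades C to I hold regulators of clotting, fibrinolysis and complement. Some members inhibit nothing, such as the collagen chaperone SERPINH1 and the hormone carriers SERPINA6 and SERPINA7.

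The libraries came from U2OS, a human osteosarcoma cell line, with intact ID3 (WT) or with ID3 knocked out (ID3-KO). ID3 is an inhibitor of basic helix-loop-helix transcription factors, and mocetinostat is a class I histone deacetylase inhibitor (HDACi). The study asked how loss of ID3 alters the response to HDAC inhibition. RNA-seq was run on 24 libraries, which the series describes as 3 biological replicates for each of 8 groups. In AID-DIvA cells, a U2OS derivative that carries the restriction enzyme AsiSI under control of 4-hydroxytamoxifen, the groups were WT untreated, WT mocetinostat with recovery, ID3-KO untreated and ID3-KO mocetinostat with recovery. In parental U2OS cells they were WT untreated, WT mocetinostat, ID3-KO untreated and ID3-KO mocetinostat, with no recovery named in the labels. Treatment lasted 24 h, and recovery, where there was one, another 24 h. The dose used for these libraries and the number of knockout clones are not given in the sources used here, and no induction of AsiSI is named for them. The treated U2OS libraries were read as collected before recovery, so the cell line and the stage of collection cannot be told apart. In the labels of the 12 AID-DIvA libraries, title and treatment field name opposite treatments; titles were followed, and every direction below for these cells rests on them. The labels of the U2OS libraries hold no such conflict.

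Total counts lay between 37878751 and 76906266 per library. The replicates of every group differed by more than sampling noise, and untreated WT U2OS replicate 1 stood apart: its chi-square per gene was 103 and 91.1 against its 2 partners, where the other replicate pairs of the series ranged from 2.79 to 27.3. Values without that library stand beside the main results that rest on it, and for the gene lists its removal was chosen after the data were seen. To a lesser degree replicate 1 of both treated AID-DIvA groups differed from its partners. It was at 13.5 and 17.1 in WT cells, with 2.79 between the partners, and at 20.1 and 26.9 in ID3-KO cells, with 4.57. The value of 27.3 was that of untreated ID3-KO AID-DIvA replicates 2 and 3. ID3 transcripts were counted in all groups and were lower in the knockouts, with 34.7 ± 3.61 CPM (counts relative to library size, scaled with TMM factors over all 24 libraries; SD, n = 3) in untreated ID3-KO and 50.4 ± 2.20 CPM in untreated WT AID-DIvA cells, and 30.6 ± 1.53 against 62.3 ± 15.9 CPM in U2OS, where the untreated WT libraries held 80.7, 54.2 and 52.1 CPM and the first of them is replicate 1. Of 7 mesenchymal or osteoblast markers, 5 had a median of at least 1 CPM, while COL1A2 and BGLAP had medians of 0.382 and 0.343 CPM. None of 5 hepatocyte markers reached a median of 1 CPM, and ALB, TTR and FGB were at 0 in 17, 21 and 19 libraries.

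Of the 34 serpin genes, 13 had a mean of at least 1 CPM in at least 1 group, and 21 stayed below 1 CPM in every group. Among those 21, 10 had fewer than 20 counts over all 24 libraries, and SERPINB11 and SERPINA7 had 0. Expression was uneven over the clades, with 1 of 10 members at 1 CPM or more in clade A, 4 of 13 in clade B and 8 of 11 in the other clades. It was also uneven over the gene clusters (hg19/GRCh37). On chromosome 14, 9 clade A genes lie between 94749650 and 95090392, and SERPINA1 alone reached 1 CPM. On chromosome 18, 10 clade B genes lie between 61143994 and 61672278, of which SERPINB7 and SERPINB8 reached it. On chromosome 6, SERPINB1 and SERPINB6 reached it and SERPINB9, the granzyme B inhibitor, did not, with 5 counts in all.

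On the deposited TPM scale (transcript abundance per unit of gene length, which allows levels of different genes to be compared), the untreated cells were led by SERPINH1. In untreated WT U2OS cells SERPINH1 stood at 298 ± 18.5 TPM and made up 41.6% of the summed TPM of the 34 serpin genes. SERPINA1 stood at 88.2 ± 1.34 TPM, and SERPING1 and SERPINF1 at 57.5 ± 0.588 and 54.6 ± 3.10 TPM. The libraries of SERPING1 and SERPINF1 overlapped, while those of SERPINH1, SERPINA1 and SERPING1 lay apart in this order. In mocetinostat-treated WT U2OS cells SERPINH1 at 79.1 ± 2.06 TPM overlapped SERPINA1 at 78.4 ± 1.87 TPM. In treated ID3-KO U2OS cells SERPINH1 stood at 84.4 ± 3.93 TPM, above SERPING1 at 55.4 ± 2.14 TPM in every library. In AID-DIvA cells SERPINH1 led in all 4 groups, from 188 ± 23.1 TPM in treated WT to 282 ± 27.8 TPM in untreated ID3-KO cells.

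**Figure D1:**
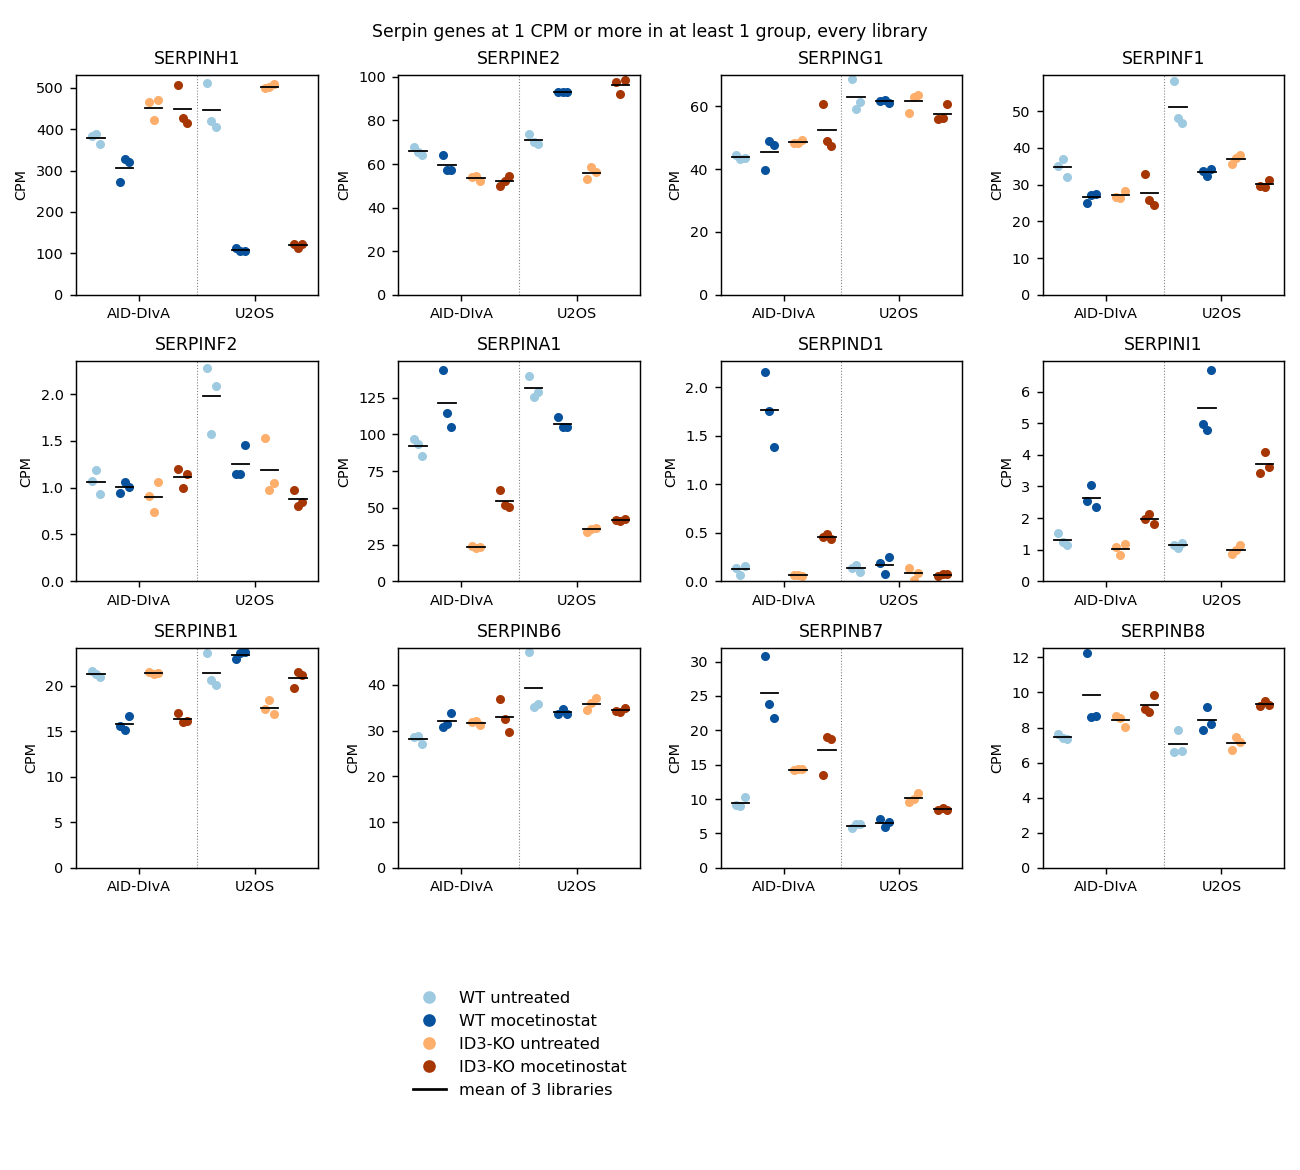
CPM of 12 of the 13 serpin genes that reached 1 CPM in at least 1 group, by cell line. Points are single libraries, 3 per group, and black bars are group means; the y axes start at 0 and differ between panels. SERPINH1 was low in the 6 mocetinostat-treated U2OS libraries only, and SERPINA1 was lower in each ID3-KO group than in the WT group of the same line and treatment.

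Differences were tested in edgeR with the quasi-likelihood test, and p-values were adjusted after Benjamini and Hochberg over all genes tested. A difference between treatments or genotypes was called where the adjusted p lay under 0.05 and the log2 fold change beyond 1 in size. A difference between responses needed the adjusted p alone. In recovered AID-DIvA cells 3 of 15 serpin genes tested rose with mocetinostat in ID3-KO cells and none fell. Of all genes 7.46% were called there, 4.9% upward and 2.56% downward. In WT cells 5 of 16 rose and none fell, beside 7.38% of all genes, 4.86% upward and 2.52% downward. Among these calls SERPINA6 and SERPIND1 in both genotypes and SERPINA10 in WT cells were low genes. They passed the low-count filter through treated libraries and had to be higher there. With at least 10 counts in every library SERPINA1 alone was called in ID3-KO cells, beside 5.2% of all genes. In WT cells SERPINB7 and SERPINI1 were then called, beside 5.03%. The median log2 fold change was 0.10 over the serpins tested and -0.02 over all genes in ID3-KO cells, and 0.22 and 0.00 in WT cells.

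In U2OS cells 2 serpins rose and 1 fell of 15 tested in ID3-KO cells, beside 20.3% of all genes called, 14.6% upward and 5.77% downward. In WT cells 3 rose and 1 fell of 17, beside 18.6% of all genes, 13.6% upward and 5.06% downward. In these fits the serpin shares in U2OS cells were thus near those of all genes. Among the rises SERPINA6 in both genotypes and SERPINB2 in WT cells were low genes. They passed the low-count filter through treated libraries and had to be higher there. With at least 10 counts in every library SERPINH1 and SERPINI1 alone were called in each genotype. Beside them 15.4% of all genes were called in ID3-KO and 15% in WT cells. The median was 0.08 in ID3-KO and 0.14 in WT cells over the serpins against 0.00 and 0.01 over all genes, and SERPINB2, whose untreated libraries were at 0, lies above that median at its bound as well. Between untreated genotypes SERPINA1 was the single serpin called, lower in ID3-KO cells, of 13 tested in AID-DIvA and of 14 in U2OS cells. There 4.58% of all genes were called in AID-DIvA cells, 2.27% higher and 2.3% lower in ID3-KO, and 4.26% in U2OS cells, 1.42% higher and 2.84% lower. The median log2 difference over the serpins was 0.12 in AID-DIvA and -0.09 in U2OS cells, and 0.00 and -0.01 over all genes. With no fold threshold, 5 of 15 and 13 of 16 serpins passed in ID3-KO and WT AID-DIvA cells, beside 40.1% and 46.9% of all genes, and 11 of 15 and 10 of 17 in U2OS cells, beside 69.9% and 48.9%. Between untreated genotypes 8 of 13 passed in AID-DIvA and 5 of 14 in U2OS cells, beside 36.7% and 15.2%. Without untreated WT U2OS replicate 1, 6 serpins were called in WT U2OS cells, beside 19.9% of all genes, and 2 between untreated U2OS genotypes, beside 5.63%. The added calls were SERPINA5 and SERPINA12 in WT cells and SERPINA12 between genotypes. Both are low genes, and nearly all SERPINA12 counts lay on the opposite strand.

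Interactions of genotype and treatment were called for 1 serpin upward and 1 downward of 16 tested in AID-DIvA cells, where 1.21% of all genes were called, 0.762% upward and 0.451% downward. In U2OS cells 2 were called upward and 1 downward of 18, beside 2.15% of all genes, 1.1% upward and 1.06% downward. The response in U2OS minus that in AID-DIvA cells was called for 4 serpins upward and 6 downward of 18 in WT cells, beside 42.2% of all genes, 21.7% upward and 20.5% downward. In ID3-KO cells 5 were called upward and 6 downward of 17, beside 52.5% of all genes, 27.7% upward and 24.8% downward. Without untreated WT U2OS replicate 1 the U2OS interaction count was 3, beside 9.03% of all genes, and the WT response count 11, beside 52% of all genes. Genes that pass the low-count filter only through the group where they are high must differ, and 14 of the 34 members were tested in no comparison.

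**Figure D2:**
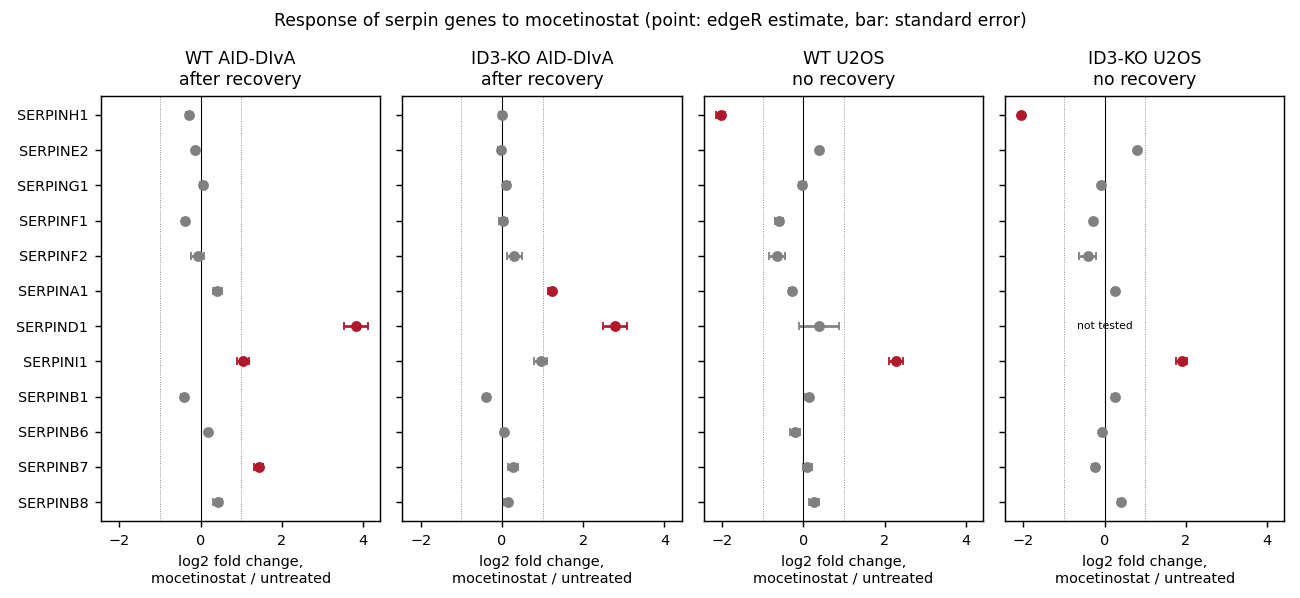
Log2 fold change of mocetinostat-treated over untreated cells for 12 of the 13 serpin genes at 1 CPM or more in at least 1 group, with the standard error as a bar; red marks differences called by the test and the fold threshold, and the dotted lines mark that fold. SERPINH1 fell in both U2OS panels, SERPIND1 rose in both AID-DIvA panels and SERPINI1 was above 0 in all 4 panels.

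SERPINH1 (HSP47, ENSG00000149257.9, chr11:75273101-75283828, plus strand) encodes a chaperone of the endoplasmic reticulum that binds folded procollagen, and it was the most abundant serpin transcript of untreated cells. In U2OS cells mocetinostat lowered it about as much in both genotypes. It was counted at 512, 421 and 406 CPM in the untreated and at 114, 105 and 107 CPM in the treated WT libraries, and at 500.2, 501 and 508 CPM in the untreated and 124, 112 and 123 CPM in the treated ID3-KO libraries. No treated library came near an untreated one. The log2 fold change was -2.03 ± 0.108 (SE; edgeR adjusted p = 6.52e-06) in WT and -2.07 ± 0.0467 (edgeR adjusted p = 3.75e-20) in ID3-KO cells, and the difference between the genotypes was -0.03 ± 0.117 (edgeR adjusted p = 0.938). Without untreated WT replicate 1 the WT value was -1.92. In these bulk libraries fewer cells of a type and less RNA per cell cannot be told apart.

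After recovery, SERPINH1 in AID-DIvA cells did not show that drop. In ID3-KO cells the untreated libraries were at 465, 421 and 471 CPM and the treated ones at 507, 428 and 415 CPM, and the groups overlapped (log2 fold change -0.01 ± 0.0744, edgeR adjusted p = 0.931). In WT cells the untreated libraries were at 384, 388 and 365 CPM and the treated ones at 272, 328 and 321 CPM, all of them lower, with a log2 fold change of -0.30 ± 0.0621 (edgeR adjusted p = 0.00165) that stayed inside the fold threshold. The response in U2OS minus that in AID-DIvA cells was -1.73 ± 0.135 in WT (edgeR adjusted p = 4.17e-07, and -1.62 without untreated WT U2OS replicate 1) and -2.05 ± 0.0978 in ID3-KO cells (edgeR adjusted p = 1.09e-11) on the log2 scale. Treated ID3-KO AID-DIvA libraries were all above the treated WT libraries, at 450.2 ± 49.9 against 307 ± 30.2 CPM.

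A promoter window of SERPINH1 is shown because the gene is a textbook target of the heat shock factors, which bind inverted repeats of NGAAN. Of its 2 RefSeq windows of GRCh38.p14 the first listed, chr11:75562003-75562302 on the plus strand, runs from 250 bases before to 50 bases after the start. Capitals mark the overlapping letters of TTCNNGAA and GAANNTTC, the inverted pairs of that repeat, each of which reads the same on both strands:
SERPINH1: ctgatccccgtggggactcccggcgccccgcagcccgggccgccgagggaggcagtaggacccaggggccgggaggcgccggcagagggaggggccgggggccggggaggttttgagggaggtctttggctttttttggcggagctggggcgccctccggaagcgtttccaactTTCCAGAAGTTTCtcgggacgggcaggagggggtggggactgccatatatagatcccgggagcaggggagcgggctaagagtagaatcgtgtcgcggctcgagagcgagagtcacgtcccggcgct
The marked bases lie 76 to 64 bases before the start, and the other window, chr11:75562223-75562522, holds neither sequence. TTCNNGAA stood in 7.74% and GAANNTTC in 6.77% of all 35116 RefSeq promoter windows of this length, and 357 windows (1.02%) held both, among them windows of SERPINH1 and SERPINA10. A match of letters is a description of the sequence and does not show binding.

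Other genes of collagen folding in the endoplasmic reticulum did not fall past the threshold with SERPINH1. Of 14 such genes, all tested in U2OS cells, 2 rose and none fell past the threshold in either genotype, beside 14.6% of all genes called upward and 5.77% downward in ID3-KO and 13.6% and 5.06% in WT cells. With no fold threshold 5 rose and 7 fell in ID3-KO and 3 rose and 6 fell in WT cells, and the median log2 fold change was -0.13 in WT and -0.09 in ID3-KO cells. Without untreated WT U2OS replicate 1 the WT median was -0.09 and the 14 spanned -0.56 to 1.65. The 2 were LEPREL1 (prolyl 3-hydroxylase P3H2), which went from 31.3 ± 1.79 to 100.9 ± 1.75 CPM in WT cells (log2 fold change 1.70) and from 31.6 ± 0.331 to 107 ± 0.542 CPM in ID3-KO cells (1.77), and P4HA3, a catalytic subunit of prolyl 4-hydroxylase, with 1.23 and 1.56. The lowest values among the 14, named after they were seen, were those of LEPREL2 (P3H3) in WT cells, -0.77, and PLOD3, a lysyl hydroxylase, in ID3-KO cells, -0.62. In recovered AID-DIvA cells no gene of this list was called in either genotype, where the medians were -0.04 in WT and 0.00 in ID3-KO cells.

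**Figure D3:**
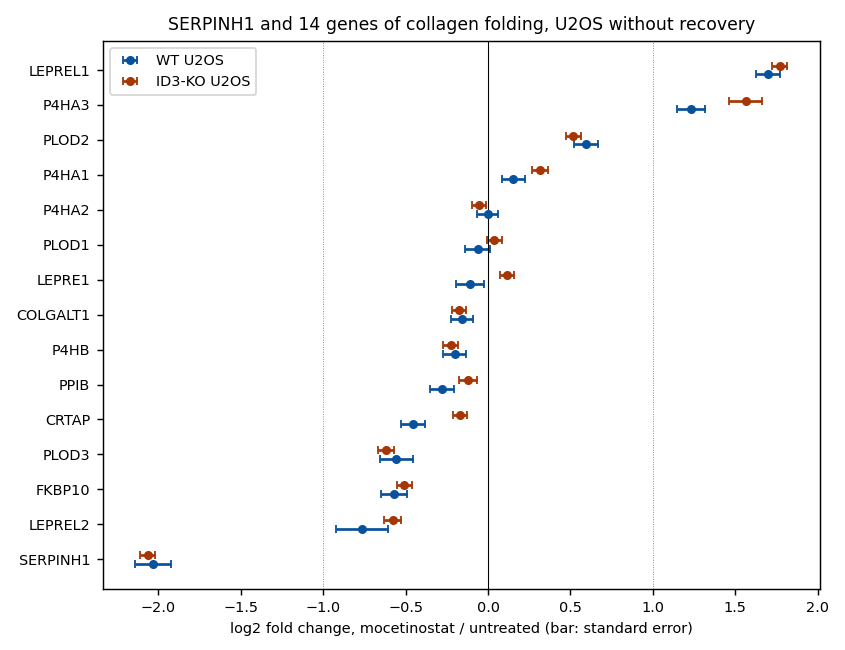
Log2 fold change of mocetinostat-treated over untreated U2OS cells for SERPINH1 and 14 genes of collagen folding, in WT (blue) and ID3-KO (orange) cells, with standard errors as bars and dotted lines at a log2 fold change of -1 and 1. SERPINH1 at -2.03 and -2.07 lies below all 14, which span -0.77 to 1.77.

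SERPINA1 (alpha-1-antitrypsin, ENSG00000197249.8, chr14:94843084-94857030, minus strand), the main plasma inhibitor of neutrophil elastase, was lower in ID3-KO than in WT cells of both lines. Untreated AID-DIvA libraries held 97.0, 93.5 and 85.1 CPM in WT and 23.8, 22.9 and 23.7 CPM in ID3-KO cells. Untreated U2OS libraries held 139.7, 126 and 129 CPM in WT and 33.8, 35.7 and 36.5 CPM in ID3-KO cells. The genotypes were far apart in both lines, with a log2 difference of ID3-KO against WT of -1.99 ± 0.0568 in AID-DIvA (edgeR adjusted p = 8.07e-13) and -1.90 ± 0.0785 in U2OS cells (edgeR adjusted p = 2.09e-05), the latter -1.85 without untreated WT U2OS replicate 1. The treated groups did not overlap either: ID3-KO cells were at 54.9 ± 6.28 against 121 ± 20.1 CPM in WT AID-DIvA and at 41.7 ± 0.688 against 107 ± 4.20 CPM in U2OS cells. The 5 hepatocyte markers summed to 0.133 to 0.759 CPM in untreated WT and 0.152 to 0.285 CPM in untreated ID3-KO U2OS libraries, and to at most 0.439 CPM in every other group.

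Mocetinostat moved SERPINA1 in a genotype-dependent manner. In recovered AID-DIvA cells the treated ID3-KO libraries held 62.1, 51.7 and 50.8 CPM, a log2 fold change of 1.22 ± 0.0782 (edgeR adjusted p = 2.71e-06), and the treated WT libraries held 144, 115 and 105 CPM, a log2 fold change of 0.41 ± 0.110 (edgeR adjusted p = 0.0152) below the fold threshold. All treated libraries were above the untreated ones of their genotype. In U2OS cells the treated ID3-KO libraries held 41.7, 41.1 and 42.5 CPM (log2 fold change 0.25 ± 0.0495), slightly above the untreated ones, and the treated WT libraries held 112, 105 and 105 CPM (-0.28 ± 0.0762, and -0.24 without untreated replicate 1), slightly below them. The genotype by treatment interaction on the log2 scale was 0.82 ± 0.136 in AID-DIvA (edgeR adjusted p = 0.00637) and 0.54 ± 0.0874 in U2OS cells (edgeR adjusted p = 0.00445, and 0.49 without untreated WT U2OS replicate 1). The response in U2OS cells was lower than that in AID-DIvA cells, by -0.69 in WT (-0.64 without untreated WT U2OS replicate 1) and -0.97 in ID3-KO cells.

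A promoter window of SERPINA1 is shown because ID3 acts on factors that bind the E-box, CANNTG, which also reads the same on both strands. Of its 2 RefSeq windows the first listed, chr14:94390586-94390885 (GRCh38.p14, minus strand), holds 1 match, in capitals, and the other, chr14:94388553-94388852, holds none:
SERPINA1: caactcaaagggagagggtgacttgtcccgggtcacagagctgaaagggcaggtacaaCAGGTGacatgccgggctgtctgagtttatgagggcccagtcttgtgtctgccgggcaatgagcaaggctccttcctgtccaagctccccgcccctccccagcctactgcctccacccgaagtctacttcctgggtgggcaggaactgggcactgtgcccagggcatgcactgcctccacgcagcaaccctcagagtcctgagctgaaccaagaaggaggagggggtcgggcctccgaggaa
CANNTG stood in 68.7% of all windows of this length and in 31 of 41 windows of the 27 serpin genes with a window, so a match does not set SERPINA1 apart.

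SERPINE2 (protease nexin-1, ENSG00000135919.8, chr2:224839829-224904036), an inhibitor of thrombin and of plasminogen activators at the cell surface, was lower in ID3-KO than in WT untreated cells of both lines. Untreated libraries held 67.9, 65.5 and 64.3 CPM in WT and 53.9, 54.4 and 52.4 CPM in ID3-KO AID-DIvA cells, and 73.8, 70.3 and 69.4 CPM in WT and 53.2, 58.5 and 56.3 CPM in ID3-KO U2OS cells. Every ID3-KO library was lower, by -0.32 ± 0.0452 and -0.35 ± 0.0727 on the log2 scale (edgeR adjusted p = 3.44e-05 and 0.0173, and -0.32 in U2OS without WT replicate 1), inside the fold threshold. Treated U2OS libraries held 92.9, 92.8 and 93.0 CPM in WT and 97.8, 92.2 and 98.6 CPM in ID3-KO cells, all above the untreated ones, and the genotypes overlapped. The log2 fold change was 0.39 ± 0.0676 in WT (0.42 without untreated replicate 1) and 0.79 ± 0.0481 in ID3-KO cells. The call of the interaction, 0.40 ± 0.0816 (edgeR adjusted p = 0.0208), was lost in 7 of 12 fits that left out 1 library, with adjusted p-values up to 0.0751. Without untreated WT replicate 1 the interaction was 0.37 ± 0.0623 and was called (edgeR adjusted p = 5.92e-05), beside 9.03% of all genes. In recovered AID-DIvA cells the treated libraries held 64.0, 57.1 and 57.2 CPM in WT and 49.8, 52.2 and 54.6 CPM in ID3-KO cells, and the ID3-KO groups overlapped.

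SERPINI1 (neuroserpin, ENSG00000163536.8, chr3:167453031-167543356, plus strand), a neuronal inhibitor of tissue plasminogen activator, was higher after mocetinostat in every line and genotype. Untreated U2OS libraries held 1.16, 1.06 and 1.21 CPM in WT and 0.853, 0.995 and 1.14 CPM in ID3-KO cells, and the treated ones 4.98, 4.78 and 6.67 CPM and 3.43, 4.09 and 3.61 CPM. The rise was 2.27 ± 0.170 in WT (edgeR adjusted p = 3.28e-05, and 2.30 without untreated replicate 1) and 1.89 ± 0.144 in ID3-KO cells (edgeR adjusted p = 6.35e-11) on the log2 scale. AID-DIvA libraries went from 1.52, 1.24 and 1.15 CPM to 2.56, 3.04 and 2.35 CPM in WT and from 1.10, 0.834 and 1.17 CPM to 1.97, 2.11 and 1.82 CPM in ID3-KO cells. The treated libraries were all above the untreated ones, with a log2 fold change of 1.04 ± 0.150 in WT (edgeR adjusted p = 7.83e-05) and 0.95 ± 0.159 in ID3-KO cells (edgeR adjusted p = 0.00114, inside the fold threshold). The WT value fell inside the fold threshold without treated WT replicate 2 (0.93) or untreated WT replicate 3 (0.95). No difference in response between the genotypes was detected, with interactions of -0.07 ± 0.227 in AID-DIvA and -0.38 ± 0.228 in U2OS cells (edgeR adjusted p = 0.931 and 0.533). The response was larger in U2OS than in AID-DIvA cells, by 1.25 ± 0.239 in WT (1.27 without untreated WT U2OS replicate 1) and 0.95 ± 0.217 in ID3-KO cells on the log2 scale (edgeR adjusted p = 0.000874 and 0.00116).

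The promoter window of SERPINI1 is shown as that of the serpin at 1 CPM or more whose level rose in both lines. The RefSeq window chr3:167735471-167735770 (GRCh38.p14, plus strand) holds 5 matches to CANNTG, in capitals:
SERPINI1: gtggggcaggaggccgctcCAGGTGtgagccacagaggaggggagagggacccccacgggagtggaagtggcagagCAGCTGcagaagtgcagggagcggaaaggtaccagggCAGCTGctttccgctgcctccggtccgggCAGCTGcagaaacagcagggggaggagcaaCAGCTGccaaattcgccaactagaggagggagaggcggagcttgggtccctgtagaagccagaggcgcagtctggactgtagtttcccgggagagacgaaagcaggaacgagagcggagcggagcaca
It holds neither TTCNNGAA nor GAANNTTC. These letters were not tested for any part in the response.

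SERPINF2 (alpha-2-antiplasmin), the plasma inhibitor of plasmin, had group means from 0.876 to 1.98 CPM. Its U2OS libraries held 2.28, 1.57 and 2.08 CPM in untreated WT, 1.15, 1.15 and 1.46 CPM in treated WT, 1.53, 0.978 and 1.05 CPM in untreated ID3-KO and 0.975, 0.807 and 0.847 CPM in treated ID3-KO cells. Treated libraries were below untreated ones in both genotypes, with a log2 fold change of -0.64 ± 0.197 in WT and -0.42 ± 0.202 in ID3-KO cells (edgeR adjusted p = 0.0289 and 0.0694, and -0.51 in WT without untreated replicate 1). In AID-DIvA libraries it held 1.07, 1.19 and 0.933 CPM in untreated WT, 0.939, 1.06 and 1.01 CPM in treated WT, 0.910, 0.738 and 1.06 CPM in untreated ID3-KO and 1.20, 0.996 and 1.15 CPM in treated ID3-KO cells, and the groups overlapped. Of 9 genes of plasminogen activation, the proteases, receptors and binding proteins these serpins act on or beside, 7 were tested in each of the 6 comparisons of treatment or genotype, and PLAU, the urokinase plasminogen activator, was the single call there. It went from 32.0 ± 1.68 to 64.9 ± 24.2 CPM in recovered WT AID-DIvA cells (log2 fold change 1.03 ± 0.286, edgeR adjusted p = 0.0392). Its response was lower in U2OS than in AID-DIvA cells, by -1.81 in WT and -1.04 in ID3-KO cells. ANXA2 (-0.20), LRP1 (-0.32) and PLAT (0.24) were also called for the ID3-KO response difference, and S100A10 (0.54) for the AID-DIvA interaction. Of all genes 4.86% were called upward on treatment of WT AID-DIvA cells, where PLAU was called. For the ID3-KO response difference 1 of 8 was called upward and 3 downward, 50% against 52.5% of all genes and so near that share. For the WT one 1 of 8 was called downward, beside 20.5%. Without untreated WT U2OS replicate 1 the WT count was 2 upward and 1 downward of 8, beside 52% of all genes called. The U2OS interaction was then called upward for 1 of 8, beside 4.46%, and for none in the main fit. For the AID-DIvA interaction 1 of 7 was called upward, beside 0.762%.

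SERPINF1 (PEDF, ENSG00000132386.6, chr17:1665253-1680868), a secreted serpin known as an inhibitor of blood vessel growth that has no protease inhibiting activity, had its highest mean in untreated WT cells of both lines. Untreated libraries held 35.0, 36.9 and 32.0 CPM in WT and 26.7, 26.3 and 28.2 CPM in ID3-KO AID-DIvA cells, and 58.3, 48.2 and 46.8 CPM in WT and 35.6, 37.1 and 38.2 CPM in ID3-KO U2OS cells. The genotypes did not overlap, with log2 differences of -0.38 ± 0.0607 and -0.47 ± 0.0997 (edgeR adjusted p = 0.000124 and 0.0190), the latter -0.36 without WT replicate 1. Treated libraries held 24.9, 27.2 and 27.5 CPM in WT and 32.8, 25.8 and 24.5 CPM in ID3-KO AID-DIvA cells, and 33.6, 32.5 and 34.3 CPM in WT and 29.7, 29.4 and 31.2 CPM in ID3-KO U2OS cells. WT libraries were lower after treatment in both lines, by -0.38 ± 0.0651 on the log2 scale in AID-DIvA and -0.60 ± 0.101 in U2OS cells (edgeR adjusted p = 0.000333 and 0.00182, and -0.50 in U2OS without untreated replicate 1). ID3-KO cells were lower by -0.29 ± 0.0513 in U2OS, and their AID-DIvA groups overlapped (0.03 ± 0.0968).

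SERPING1 (C1 inhibitor), which blocks the complement proteases C1r and C1s and plasma kallikrein, was the single serpin at 1 CPM or more that no comparison called. Its level ran from 39.7 CPM in a treated WT AID-DIvA library to 68.7 CPM in untreated WT U2OS replicate 1, and its log2 fold changes on treatment ran from -0.09 to 0.10. Of 5 complement C1 and lectin proteases, all tested, C1RL fell in ID3-KO U2OS cells, from 47.7 ± 0.309 to 21.1 ± 1.11 CPM (log2 fold change -1.17). In WT U2OS cells C1R and C1RL fell (-1.05 and -1.03). Without untreated WT U2OS replicate 1 they were at -0.96, inside the fold threshold, and -1.12. C1S fell in recovered WT AID-DIvA cells from 8.14 ± 0.599 to 3.76 ± 0.398 CPM (-1.10). In ID3-KO AID-DIvA cells none of the 5 was called, and the lowest log2 fold change was -0.74. Of all genes 5.77% and 5.06% were called downward in ID3-KO and WT U2OS cells and 2.52% in WT AID-DIvA cells. For the AID-DIvA interaction 1 of the 5 was called upward, beside 0.762% of all genes. For each response difference 2 were called downward, beside 20.5% in WT and 24.8% in ID3-KO cells. In untreated cells none of the 5 was called between genotypes.

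SERPIND1 (heparin cofactor II, ENSG00000099937.6, chr22:21128167-21142008, plus strand), a thrombin inhibitor, was raised after mocetinostat and recovery in AID-DIvA cells. Untreated libraries held 0.141, 0.0687 and 0.158 CPM in WT and 0.0687, 0.0683 and 0.0566 CPM in ID3-KO cells, and treated ones 2.16, 1.75 and 1.38 CPM and 0.456, 0.483 and 0.434 CPM. The rise was 3.83 ± 0.288 in WT (edgeR adjusted p = 2.03e-07) and 2.79 ± 0.304 in ID3-KO cells (edgeR adjusted p = 8.52e-05) on the log2 scale, and the interaction of -1.04 ± 0.574 was not called (edgeR adjusted p = 0.516). The untreated groups held 21 and 12 counts in all, and SERPIND1 was not called with at least 10 counts in every library. It passed the main filter through its treated libraries, where it had to be higher. The adjusted p-values of the rise thus add no support to its direction. In U2OS cells the libraries held 0.139, 0.165 and 0.0948 CPM in untreated WT, 0.183, 0.0794 and 0.250 CPM in treated WT, 0.136, 0.0169 and 0.0891 CPM in untreated ID3-KO and 0.0504, 0.0733 and 0.0756 CPM in treated ID3-KO cells, with overlap in both genotypes. The difference between the responses, U2OS minus AID-DIvA, was -3.42 ± 0.590 in WT (-3.39 without untreated WT U2OS replicate 1) and -2.99 ± 0.742 in ID3-KO cells on the log2 scale (edgeR adjusted p = 0.000378 and 0.00226). The gene lies opposite PI4KA, whose median was 145 CPM, and 73.2% of its strand-assigned counts were on its own strand. Its own-strand counts were 110, 67 and 73 in treated WT and 15, 30 and 19 in treated ID3-KO AID-DIvA libraries, against 2, 4 and 4 and 0, 0 and 1 in the untreated ones. With counts of its own strand alone the differences between the responses were 0.25 and -2.36 and were not called (edgeR adjusted p = 0.455 and 0.826); own-strand counts were 0 in all 6 untreated U2OS libraries.

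SERPINC1 (antithrombin), the main inhibitor of thrombin and factor Xa, held 107 counts over all libraries and was tested in no comparison. Of 21 coagulation and kallikrein genes, 12 to 14 were tested in each comparison of treatment or genotype. On treatment 3 rose in ID3-KO and 1 in WT AID-DIvA cells with none falling, 3 rose and 1 fell in ID3-KO and 3 rose and none fell in WT U2OS cells. Of all genes 4.9%, 4.86%, 14.6% and 13.6% were called upward in these comparisons. F5, the cofactor of factor Xa, rose in all 4 treatments, with log2 fold changes of 2.46 in ID3-KO and 1.75 in WT AID-DIvA cells and of 2.81 and 2.97 in U2OS cells (2.55 in WT without untreated replicate 1). PROCR, the endothelial protein C receptor, rose from 42.4 ± 2.21 to 88.2 ± 8.77 CPM in recovered ID3-KO AID-DIvA cells. In U2OS cells F2RL2, a thrombin receptor, rose by 1.71 in ID3-KO and 1.30 in WT cells, and THBD, thrombomodulin, by 1.23 and 1.18, the WT values being 1.26 and 1.09 without untreated replicate 1. F2RL1, a receptor cut by trypsin-like proteases, fell from 39.1 to 17.8 CPM in ID3-KO U2OS cells (log2 fold change -1.13). No gene of this list was called between untreated genotypes. Without WT replicate 1, 1 of 15 was called lower in U2OS cells, beside 3.73% of all genes. Interactions were called upward for THBD (1.15) of 13 tested in AID-DIvA and F2R (0.60) of 15 tested in U2OS cells. Of all genes 0.762% and 1.1% were called upward there. Without untreated WT U2OS replicate 1, 2 of 15 were called upward for the U2OS interaction, beside 4.46% of all genes. The differences between the responses were called upward for 4 and downward for 3 of 15 in ID3-KO and for 5 and 2 of 14 in WT cells, beside 52.5% and 42.2% of all genes called.

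Among the intracellular clade B serpins at 1 CPM or more, SERPINB7 (megsin, ENSG00000166396.8, chr18:61420169-61472604) was the one called past the fold threshold. Untreated AID-DIvA libraries held 9.21, 8.99 and 10.3 CPM in WT and 14.2, 14.3 and 14.4 CPM in ID3-KO cells, and the treated ones 30.8, 23.9 and 21.8 CPM in WT and 13.5, 19.0 and 18.7 CPM in ID3-KO cells. Thus all untreated ID3-KO libraries were above WT and all treated ones below. The log2 fold change was 1.43 ± 0.115 in WT (edgeR adjusted p = 1.82e-06) and 0.27 ± 0.130 in ID3-KO cells (edgeR adjusted p = 0.129), and the interaction was -1.16 ± 0.195 (edgeR adjusted p = 0.00902). U2OS libraries held 5.73, 6.40 and 6.31 CPM in untreated WT, 7.10, 5.91 and 6.62 CPM in treated WT, 9.58, 10.04 and 10.9 CPM in untreated ID3-KO and 8.46, 8.76 and 8.45 CPM in treated ID3-KO cells. The ID3-KO libraries were above WT with and without mocetinostat. The untreated log2 difference of ID3-KO against WT was 0.56 ± 0.0668 in AID-DIvA and 0.72 ± 0.0949 in U2OS cells (edgeR adjusted p = 5.79e-06 and 0.00255, and 0.68 in U2OS without WT replicate 1), inside the fold threshold. The response in U2OS minus that in AID-DIvA cells was -1.32 ± 0.171 in WT (-1.37 without untreated WT U2OS replicate 1) and -0.50 ± 0.141 in ID3-KO cells.

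SERPINB1, SERPINB6 and SERPINB8 guard cells against stray granule and processing proteases, and they moved by less than the fold threshold in every comparison. SERPINB1, the leukocyte elastase inhibitor, was lower after recovery in AID-DIvA libraries of WT (21.6, 21.3 and 20.9 CPM untreated, 15.5, 15.1 and 16.7 CPM treated) and ID3-KO cells (21.5, 21.3 and 21.4 CPM untreated, 17.0, 16.0 and 16.1 CPM treated). Its log2 fold change was -0.42 ± 0.0604 in WT and -0.38 ± 0.0653 in ID3-KO cells (edgeR adjusted p = 7.44e-05 and 0.00129), with no overlap. In U2OS cells it held 23.5, 20.6 and 20.1 CPM in untreated WT, 22.9, 23.6 and 23.7 CPM in treated WT, 17.5, 18.4 and 16.8 CPM in untreated ID3-KO and 19.8, 21.5 and 21.1 CPM in treated ID3-KO libraries. The ID3-KO groups were apart (0.25 ± 0.0589), and the WT groups overlapped through untreated replicate 1, at 23.5 CPM. Without that library the WT log2 fold change was 0.21 ± 0.0564 (edgeR adjusted p = 0.000991). The U2OS interaction was then 0.04 (edgeR adjusted p = 0.856). The responses of the lines differed by 0.57 ± 0.107 in WT and 0.64 ± 0.0887 in ID3-KO cells (edgeR adjusted p = 0.000779 and 6.55e-06, and 0.64 in WT without untreated WT U2OS replicate 1).

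SERPINB6, an inhibitor of cathepsin G, held 28.7, 28.8 and 27.1 CPM in untreated WT, 30.8, 31.5 and 33.8 CPM in treated WT, 31.8, 32.2 and 31.3 CPM in untreated ID3-KO and 37.03, 32.5 and 29.6 CPM in treated ID3-KO AID-DIvA libraries. Its U2OS libraries held 47.2, 35.2 and 35.8 CPM in untreated WT, 33.7, 34.7 and 33.7 CPM in treated WT, 34.4, 36.1 and 37.2 CPM in untreated ID3-KO and 34.4, 34.1 and 35.0 CPM in treated ID3-KO cells. The value of 47.2 CPM is that of untreated WT replicate 1, and the difference between the WT responses went from -0.39 ± 0.142 to -0.24 ± 0.0739 without it (edgeR adjusted p = 0.0410 and 0.00989). The call was lost in 8 of 12 fits that left out 1 library, with at least 10 counts in every library (edgeR adjusted p = 0.0595) and with the replicate block (edgeR adjusted p = 0.0590). SERPINB8, a furin inhibitor, held 7.62, 7.39 and 7.34 CPM in untreated WT, 12.3, 8.59 and 8.68 CPM in treated WT, 8.68, 8.57 and 8.03 CPM in untreated ID3-KO and 9.04, 8.88 and 9.87 CPM in treated ID3-KO AID-DIvA libraries. In U2OS libraries it held 6.60, 7.88 and 6.67 CPM in untreated WT, 7.87, 9.18 and 8.23 CPM in treated WT, 6.69, 7.45 and 7.18 CPM in untreated ID3-KO and 9.23, 9.50 and 9.30 CPM in treated ID3-KO cells. Treated ID3-KO U2OS libraries were all above the untreated ones (log2 fold change 0.40 ± 0.0752, edgeR adjusted p = 6.14e-05), while the WT U2OS groups overlapped. In AID-DIvA cells the treated libraries were above the untreated ones in both genotypes, and the adjusted p lay under 0.05 in WT cells alone.

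SERPINB2, an inhibitor of plasminogen activators, had 0 counts in all 6 untreated U2OS libraries and appeared with mocetinostat. Treated WT U2OS libraries held 69, 38 and 43 counts and treated ID3-KO libraries 30, 9 and 29 counts, all on its own strand. Set against 3 counts over the untreated group, its level was at least 53.1-fold higher in WT and at least 22.3-fold higher in ID3-KO cells; these limits cover counting error only. It passed the low-count filter and was called in WT cells, and in ID3-KO cells it was not tested. In AID-DIvA cells it held 28, 4 and 5 counts in treated WT, 1, 2 and 3 counts in treated ID3-KO, 0, 0 and 1 in untreated WT and 0 in the untreated ID3-KO libraries. Treated WT replicate 1 thus held most of its AID-DIvA counts.

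SERPINB5 (maspin) held at most 14 counts in any library. Its ID3-KO U2OS libraries went from 1, 3 and 4 to 9, 10 and 14 counts and its ID3-KO AID-DIvA libraries from 8, 10 and 9 to 4, 13 and 8 counts, and the responses differed by 1.71 ± 0.627 on the log2 scale (edgeR adjusted p = 0.0288). That call was lost with DESeq2 (adjusted p = 0.129), with no filter on low counts (edgeR adjusted p = 0.107) and in 5 of 12 fits that left out 1 library. SERPINB3 and SERPINB4, whose near-identical transcripts make the split of their reads uncertain, held 19 and 45 counts in all. SERPINB4 held 8, 3 and 6 counts in treated WT and 13, 4 and 1 in treated ID3-KO U2OS libraries, against 0 or 1 in each untreated U2OS library.

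The protease families that clade A and B serpins meet were described by counts, to be read beside the 4.9% and 4.86% of all genes called upward in ID3-KO and WT AID-DIvA cells and 14.6% and 13.6% in U2OS cells. Of 11 leukocyte granule serine proteases, 1 and 2 were tested in ID3-KO and WT AID-DIvA cells and not called. In U2OS cells 2 of 2 tested were called upward in ID3-KO and 4 of 5 in WT cells, all from an untreated mean below 1 CPM, and 5 of 5 in WT cells without untreated replicate 1. PRTN3, proteinase 3, had log2 fold changes of 4.20 in ID3-KO cells, from 0.0839 to 1.57 CPM, and 3.29 in WT cells (3.54 without untreated replicate 1). Low genes that pass the filter only through treated libraries had to be higher there. Of 13 cathepsins, CTSS rose in ID3-KO AID-DIvA cells (1.81) and 2 rose in ID3-KO U2OS cells, with CTSV at 1.03. Of 15 tissue kallikreins, secreted trypsin-like proteases encoded side by side on chromosome 19, 5 of 10 tested rose in ID3-KO and 4 of 8 in WT AID-DIvA cells, and 8 of 11 and 6 of 11 rose in U2OS cells (7 of 11 in WT without untreated replicate 1). Of these calls 4, 3, 6 and 5 started from an untreated mean below 1 CPM, such as KLK4 in ID3-KO U2OS cells, from 0.226 to 1.53 CPM. None fell past the fold threshold, and with no fold threshold 1 fell in WT U2OS cells. KLK6 went from 3.08 ± 0.333 to 11.8 ± 1.503 CPM in ID3-KO and from 6.06 ± 0.402 to 12.99 ± 1.08 CPM in WT AID-DIvA cells. Reads of near-identical kallikrein and granzyme genes may be split between copies. In untreated U2OS cells 5 of 10 kallikreins were lower in ID3-KO than in WT cells, among them KLK6 (log2 difference -1.63) and KLK2 (-1.45), beside 2.84% of all genes. Without WT replicate 1 it was again 5 of 10, beside 3.73% of all genes, with KLK2 at -1.37. In untreated AID-DIvA cells 1 of 8 was higher and 1 lower in ID3-KO, the latter KLK2 (-1.46), beside 2.27% and 2.3% of all genes.

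Among 18 protease inhibitors outside the serpin family, as among all genes, upward calls outnumbered downward ones on treatment. In this list 4 of 13 tested rose in ID3-KO and 2 of 13 in WT AID-DIvA cells with none falling, and 6 rose and 1 fell in each genotype of U2OS cells, of 15 and 16 tested. Without untreated WT U2OS replicate 1, 7 rose and 1 fell in WT U2OS cells. WFDC2 rose by 1.89 and 1.40 in ID3-KO and WT AID-DIvA cells, PI3 (elafin) by 1.37 and 2.27, and SPINK5, an inhibitor of skin kallikreins, fell by 2.07 in ID3-KO and by 1.72 in WT U2OS cells on the log2 scale, the WT value being -1.93 without untreated replicate 1. Of 16 membrane-bound serine proteases and furin, 4 rose in ID3-KO and 5 rose and 1 fell in WT U2OS cells, with ST14, HTRA1 and PCSK5 rising in both, and none was called in AID-DIvA cells. Over all 9 lists, 13 of 86 tested genes rose and none fell in ID3-KO AID-DIvA cells, 8 rose and 1 fell of 84 in WT AID-DIvA cells, 27 rose and 3 fell of 94 in ID3-KO U2OS cells and 26 rose and 4 fell of 98 in WT U2OS cells. These were 15.1%, 10.7%, 31.9% and 30.6% of the list genes tested, beside 7.46%, 7.38%, 20.3% and 18.6% of all genes called. Of the upward calls 9, 4, 16 and 19 started from an untreated mean below 1 CPM. Without untreated WT U2OS replicate 1, 29 rose and 3 fell of 100 in WT U2OS cells, beside 19.9% of all genes.

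Some markers of leukocytes and squamous epithelium, cells in which many of these genes are active, also moved with treatment. They did not all move in the same direction, and their part in these results was not tested. The summed level of 5 leukocyte markers ranged from 0.834 to 1.19 CPM in untreated and 4.18 to 5.62 CPM in treated ID3-KO AID-DIvA libraries, and from 1.98 to 2.04 and 5.32 to 5.94 CPM in WT ones. In U2OS libraries it ranged from 1.28 to 1.33 and 2.16 to 2.67 CPM in ID3-KO and from 1.45 to 1.98 and 3.56 to 3.75 CPM in WT cells. ITGAM alone of the 5 had a median above 1 CPM, at 1.62 CPM, and CD3E was at 0 in 17 libraries. Of 2 leukocyte markers tested in AID-DIvA cells, 1 was called upward in ID3-KO cells, and 1 upward and 1 downward in WT cells. In each genotype of U2OS cells 2 of 4 were called upward and none downward. The sum of 5 squamous markers went from 0.752 to 1.12 CPM untreated to 3.85 to 5.44 CPM treated in ID3-KO and from 1.31 to 1.37 to 3.23 to 3.68 CPM in WT AID-DIvA cells. In U2OS cells it was 0.810 to 0.989 and 2.20 to 2.67 CPM in ID3-KO cells, and in WT cells it was 3.30 to 3.98 CPM untreated and 2.08 to 2.54 CPM treated. No squamous marker had a median of 1 CPM, and DSG3 was at 0 in 9 libraries. Of 3 squamous markers tested in each genotype of AID-DIvA cells, 1 was called upward and 1 downward, though the sum rose. In ID3-KO U2OS cells 2 of 3 were called upward. In WT U2OS cells 2 were called upward and 1 downward of 4, with a median log2 fold change of 0.74, though the sum fell. Of all genes 7.46% and 7.38% were called in ID3-KO and WT AID-DIvA and 20.3% and 18.6% in U2OS cells.

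Below 1 CPM, SERPINA6 (corticosteroid-binding globulin) was the serpin called upward in all 4 treatments. AID-DIvA libraries went from 4, 7 and 3 to 19, 22 and 14 counts in ID3-KO and from 7, 3 and 5 to 12, 12 and 22 counts in WT cells, and U2OS libraries from 1, 5 and 2 to 21, 25 and 24 counts in ID3-KO and from 9, 11 and 12 to 60, 32 and 49 counts in WT cells. All treated libraries held more counts than the untreated ones of their group. The log2 fold changes were 2.28 ± 0.375 and 1.77 ± 0.423 in ID3-KO and WT AID-DIvA cells and 2.98 ± 0.473 and 2.11 ± 0.319 in U2OS cells (edgeR adjusted p = 0.00107, 0.00359, 7.01e-06 and 0.00108), and 1.99 in WT U2OS cells without untreated replicate 1. In all 4 treatments SERPINA6 passed the low-count filter through its treated libraries, where it had to be higher. The adjusted p-values of these rises thus add no support to their direction. Its mean stayed at or below 0.732 CPM in all groups. The other plasma serpins of clade A were near the floor: SERPINA5 (protein C inhibitor) held 127, SERPINA9 90, SERPINA3 (antichymotrypsin) 11, SERPINA4 (kallistatin) 5 and SERPINA11 3 counts over the 24 libraries.

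For 3 serpin genes nearly all counts came from the opposite strand. SERPINE3 held 868 counts, but 0.763% of its strand-assigned counts were on its own strand, and it lies opposite INTS6, whose median was 23.4 CPM. The share was 2.05% for SERPINA10 (protein Z-dependent protease inhibitor) and 3.91% for SERPINA12 (vaspin). SERPINA10 was called in recovered WT AID-DIvA cells, from 7, 4 and 5 to 16, 13 and 12 counts, of which 2, 0 and 0 and 0, 0 and 1 were on its own strand. SERPINA12 was called for the difference between the WT responses (-2.72, and -2.96 without untreated WT U2OS replicate 1) with 46 counts in untreated WT U2OS libraries, none of them on its own strand. These calls are therefore of reads opposite to the genes named. For the members at 1 CPM or more other than SERPIND1 the share on the own strand was at least 95.9%.

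**Figure D4:**
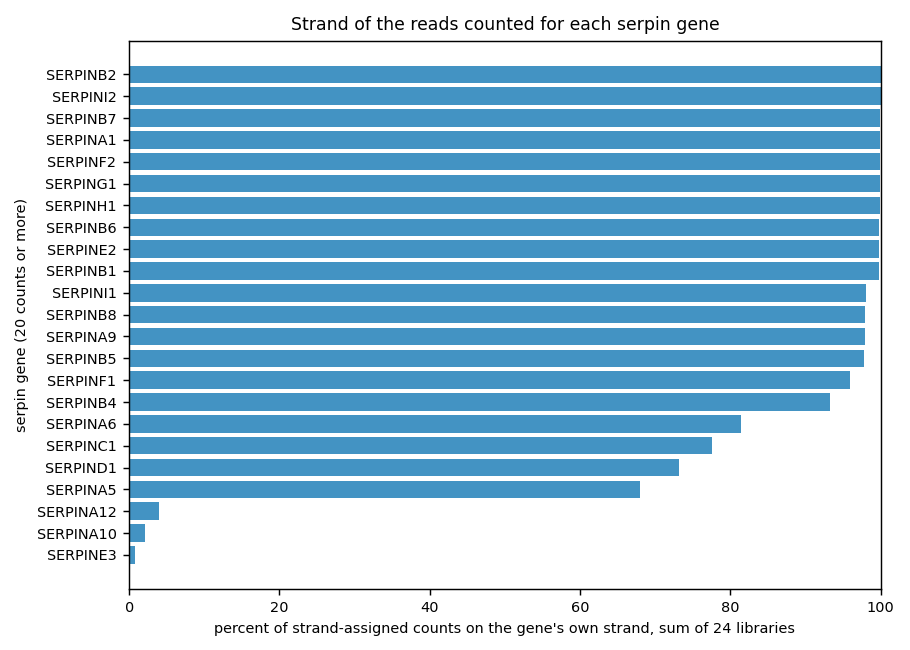
Percent of strand-assigned counts, summed over the 24 libraries, that lay on the gene's own strand, for serpin genes with 20 counts or more. SERPINE3, SERPINA10 and SERPINA12 lie at 0.763%, 2.05% and 3.91%, while most genes lie above 95%.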

How the data were processed

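RNA-seq libraries (24, in 8 groups of 3) were made as stranded total RNA and, per the labels and the study's methods, aligned to hg19/GRCh37 with STAR. The authors counted fragments per gene with featureCounts, and the deposited counts are raw, given for both strands together and by strand. The deposited TPM values were computed by the authors from these counts and the exonic length of each gene, and served only to compare levels between genes. Tool versions of these steps are not given in the sources used here.

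Groups followed the sample titles. Low counts were filtered with filterByExpr, libraries were scaled with TMM, and each comparison was fitted on its own groups with the quasi-likelihood test of edgeR 4.0.16 in R 4.3.3 over all genes tested. DESeq2 1.42.0 and its size factors, other filters, strand, thresholds, samples in the fit, a replicate block and leaving out single libraries were the alternatives. Scripts were tested on simulated data. Promoter windows are of RefSeq GRCh38.p14, and 27 of the 34 genes matched one.

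The members and gene lists were chosen with earlier results of these data known. Values per library are given for members with a mean of 1 CPM or more in a group and a call in any comparison, and for the low members that were called; 1 such member and 1 marker gene are not reported here, though counts over all members hold them. Up to 3 called genes per list and comparison were named by size of the log2 fold change. Total counts of 37878751 to 76906266 per library set the precision, and bounds against 0 use a floor of 3 counts, which covers counting error only.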

Additional observations from a re-analysis of the deposited data

Results flagged for a closer look

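Responses to mocetinostat that differed between genotypes by the interaction test, on the log2 scale as ID3-KO minus WT, were those of SERPINA1 (0.82) and SERPINB7 (-1.16) in AID-DIvA cells and those of SERPINA1 (0.54) and SERPINE2 (0.40) in U2OS cells. SERPINA1 thus had the higher response in ID3-KO cells of both lines.

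Responses that differed between the lines, as U2OS minus AID-DIvA, were called in WT cells for SERPINA1 (-0.69), SERPINA12 (-2.72), SERPINB1 (0.57), SERPINB6 (-0.39), SERPINB7 (-1.32), SERPIND1 (-3.42), SERPINE2 (0.54), SERPINH1 (-1.73) and SERPINI1 (1.25). In ID3-KO cells they were called for SERPINA1 (-0.97), SERPINB1 (0.64), SERPINB5 (1.71), SERPINB7 (-0.50), SERPINB8 (0.27), SERPIND1 (-2.99), SERPINE2 (0.83), SERPINF1 (-0.31), SERPINF2 (-0.72), SERPINH1 (-2.05) and SERPINI1 (0.95). The line and the stage of collection cannot be told apart in these differences, and the AID-DIvA directions rest on the sample titles. SERPIND1 passed the filter through its treated AID-DIvA libraries. With own-strand counts its differences were 0.25 in WT and -2.36 in ID3-KO cells and were not called. The SERPINA12 value is of reads opposite to that gene.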

How the results depend on the processing

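Of 41 calls of the serpin genes reported here over the 10 comparisons, 31 were kept in every alternative that tested them. The count called was 1, 2 and 2 with at least 10 counts in every library in ID3-KO AID-DIvA, WT AID-DIvA and WT U2OS cells on treatment, where all genes called went from 1518, 1498 and 4061 to 939, 925 and 2795. With no fold threshold it was 5, 13, 11 and 10 in ID3-KO and WT AID-DIvA and ID3-KO and WT U2OS cells, and 8 and 5 between untreated AID-DIvA and U2OS genotypes, beside the shares of all genes given above. It was 7 and 7 with DESeq2 and 8 and 7 with no filter in ID3-KO and WT U2OS cells, 4 with no filter for the AID-DIvA interaction, and 6 and 2 with all 4 groups in one fit for ID3-KO U2OS treatment and untreated U2OS genotypes. All genes called in ID3-KO and WT U2OS cells were 4845 and 4527 with DESeq2 and 5721 and 4669 with no filter, against 4308 and 4061, those of the AID-DIvA interaction 613 against 258, and those with all 4 groups 4624 and 1224 against 4308 and 878. The cause was not tested. Leaving out 1 library gave 3 to 4 and 5 to 6 calls in ID3-KO and WT AID-DIvA cells, 4 to 7 and 4 to 6 in U2OS cells, 1 to 1 and 1 to 2 between untreated AID-DIvA and U2OS genotypes, 2 to 2 and 1 to 3 for the interactions, and 9 to 11 and 8 to 11 for the WT and ID3-KO response differences. In the same order all genes called ranged from 1456 to 1713, 1555 to 1597, 4517 to 4649, 3724 to 4473, 945 to 1048, 563 to 1180, 122 to 297, 257 to 2091, 8079 to 11829 and 10685 to 11925.

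Calls lost in some fits without 1 library included the response differences of SERPINB6 in WT (8 of 12 fits) and of SERPINB8 (10), SERPINF1 (5), SERPINF2 (7) and SERPINB5 (5) in ID3-KO cells. Of these ID3-KO calls SERPINB8 was also lost with DESeq2, no filter and the replicate block (adjusted p = 0.102, 0.202 and 0.0753), SERPINF1 with at least 10 counts and the block (0.0535 and 0.0522) and SERPINF2 with DESeq2 (0.0849). SERPINA10 in WT AID-DIvA cells was not called by DESeq2 (adjusted p = 0.0546).

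Signs turned for values near 0 that were not called, except SERPIND1. For ID3-KO AID-DIvA treatment SERPINH1 was 0.0025 with DESeq2 and 0.0042 with its size factors, and SERPING1 for WT U2OS treatment was 0.0066 with at least 10 counts. With own-strand counts SERPIND1 was 1.06 for the AID-DIvA interaction and 0.25 for the WT response difference, and SERPINA6 was -0.021 for the latter. Without 1 library the ID3-KO AID-DIvA treatment values ranged from -0.0064 to 0.14 for SERPINB6, -0.060 to 0.018 for SERPINE2, -0.082 to 0.12 for SERPINF1 and -0.079 to 0.055 for SERPINH1. Those of SERPINF2 in WT AID-DIvA ranged from -0.17 to 0.015 and of SERPING1 in WT U2OS cells from -0.073 to 0.042. Between untreated U2OS genotypes SERPINB6 ranged from -0.21 to 0.017, SERPINB8 from -0.041 to 0.098, SERPING1 from -0.080 to 0.035 and SERPINA10 from -0.48 to 0.23. AID-DIvA interactions ranged from -0.056 to 0.12 for SERPING1 and -0.22 to 0.033 for SERPINI1, and U2OS ones from -0.15 to 0.037 for SERPINH1 and -0.25 to 0.46 for SERPINA10. WT response differences ranged from -0.24 to 0.040 for SERPINB8 and from -0.077 to 0.62 for SERPINA6.

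Replicate numbers did not pair the libraries: 6 of 24 correlations of deviations were over 0.1, and 9 of 24 libraries correlated best with their own number. With the replicate block 3, 5, 4 and 4 serpins were called in the 4 treatments, 1 and 1 between untreated genotypes, 2 and 3 for the interactions and 9 and 9 for the response differences, beside 1466, 1481, 4314 and 3881, 956 and 744, 157 and 393, and 8636 and 10952 of all genes. Low counts limit the calls of SERPINA6, SERPINA10, SERPINA12, SERPINB2, SERPINB5 and SERPIND1.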
